A study of Rattus norvegicus with 8 samples.

Results

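Osteopontin, encoded by Spp1 (ENSRNOG00000043451), and CD44, one of its cell surface receptors, encoded by Cd44 (ENSRNOG00000006094), were examined in rat cardiac fibroblasts, in the myofibroblasts made from them and in myofibroblasts under microcurrent. The 2 genes were taken by these Ensembl IDs from a table of 21867 genes, and both were among the 13849 genes that passed the filter on low counts. RNA was sequenced from 8 libraries in 4 groups of 2. CFs were neonatal cardiac fibroblasts from Wistar Kyoto rats, the healthy starting cells, and MFs were myofibroblasts obtained from CFs by repeated passaging in low-serum medium. The 1 µA and 2 µA groups were MFs kept for 72 h under direct current of 1 or 2 µA/cm2 without polarity reversal, in standard medium with 10% FBS. The sources used here do not give the medium of the untreated MFs over those 72 h, so current and medium cannot be told apart here. The replicates are described as biological, but the animals or cultures behind them are not given, and p-values measure only the spread between these libraries.

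Osteopontin is a secreted, phosphorylated matricellular protein that binds integrins through an RGD motif and also binds CD44. In the heart it is known to be low in healthy tissue and to rise after injury, where macrophages and activated fibroblasts make it, and it takes part in fibrosis. CD44 is a transmembrane glycoprotein whose main ligand is the matrix polysaccharide hyaluronan. It links the matrix around a cell to the cytoskeleton and is widely used as a marker of mesenchymal and activated cells. Several CD44 proteins arise from alternative exons of the gene, and the counts used here sum over all transcripts of a gene.

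The estimated counts of a library summed to between 26473085 and 37903701, and between 15269 and 15490 genes had a count above 0. Genes are listed by Ensembl ID, and no table used here pairs those IDs with symbols, so the names Spp1 and Cd44 rest on the choice of the 2 IDs. Integrin chains, hyaluronan enzymes, other partners of osteopontin and CD44, and markers of fibroblasts, macrophages or cardiomyocytes could not be looked up and were not analysed here. The cell type labels were therefore not checked against defining markers. In these bulk cultures, a change in the share of cells that express a gene and a change in RNA per cell cannot be told apart.

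Cd44 expression was higher in MFs than in CFs by 2.38-fold, and its values in both microcurrent groups lay within the error of MF. Spp1 expression did not follow this pattern. Its means were nearly equal in CF and MF, and the largest difference for this gene lay between the 2 replicates of a single group, 2 µA. Levels below are in CPM, the count divided by the library's scaled total, after TMM scaling, which corrects for library size and composition. They are not divided by gene length, so levels of Spp1 and Cd44 are not compared with each other.

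The ligand, Spp1, had 7877 and 8429 estimated counts in CF replicates 1 and 2, or 209 and 276 CPM. In MF it had 6281 and 6488 counts, or 235 and 244 CPM. At 1 µA it had 10556 and 8876 counts, or 355 and 293 CPM. The MF values thus lay between the CF values. At 2 µA, replicate 1 had 11417 counts, or 367 CPM, and replicate 2 had 4634 counts, or 150.0 CPM. These were the highest and the lowest of the 8 libraries, 2.44-fold apart, so the 2 µA group spanned the range of the whole series for this gene.

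The receptor, Cd44, had 2573 and 1998 estimated counts in CF, or 68.2 and 65.4 CPM. In MF it had 4034 and 4459 counts, or 151 and 168 CPM. It had 5314 and 4932 counts at 1 µA, or 179 and 163 CPM, and 5370 and 4890 counts at 2 µA, or 172 and 158 CPM. The 6 myofibroblast libraries, treated or not, lay between 151 and 179 CPM, against 68.2 and 65.4 CPM in CF. Among MF, 1 µA and 2 µA the values were interleaved. The replicates of each group were within 1.11-fold of each other.

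**Figure D1:**
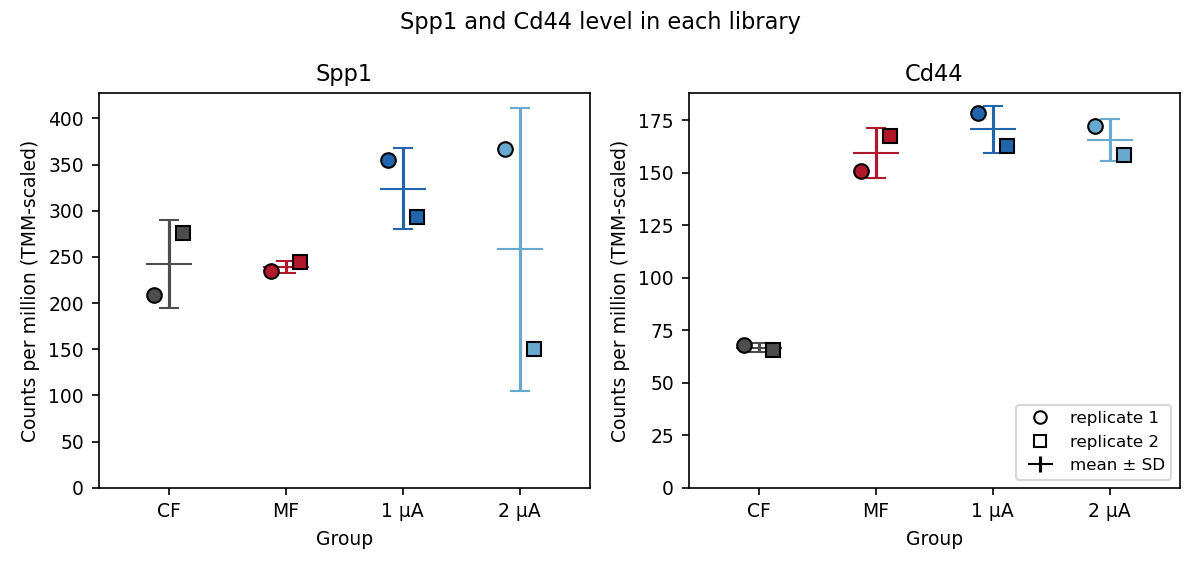
Level of Spp1 (left) and Cd44 (right) in CPM in each library of CF, MF, 1 µA and 2 µA, with replicate 1 as circles, replicate 2 as squares and the group mean ± SD (n = 2). Both Cd44 values of CF lie well under the 6 others, whereas the 2 Spp1 values at 2 µA are the highest and the lowest of the 8.

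Differentiation was examined first, by comparing MF with CF. MFs were made by passaging in low-serum medium, so differentiation, passage and serum cannot be told apart in this comparison. Cd44 rose from 66.8 ± 1.99 CPM (SD, n = 2) in CF to 159 ± 11.97 CPM (SD, n = 2) in MF. The log2 fold change was 1.25 ± 0.11 (SE), a 2.38-fold difference with a 95% interval of 1.99 to 2.85 and an adjusted p of 0.00187 (quasi-likelihood test of edgeR, adjusted by Benjamini-Hochberg over 13849 genes). Here and below, a gene was called when its adjusted p was below 0.05 and its log2 fold change was 1 or more in size. By these thresholds Cd44 was called, as were 10.4% of all genes tested between MF and CF. It held rank 67 of the 13849 genes when ordered by p.

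Spp1 had 242 ± 47.4 CPM (SD, n = 2) in CF and 239 ± 6.55 CPM (SD, n = 2) in MF. The log2 fold change was -0.017 ± 0.38 (SE) with an adjusted p of 0.981 (edgeR). The 95% interval of the fold ran from 0.527 to 1.85, and no difference between MF and CF was detectable within it. The spread of this gene entered the interval through the shared fit, including that of the 2 µA libraries. Without either one of the 2 µA libraries the SE was 0.17 and the log2 fold change was -0.017. The direction was not stable, with -0.19 without CF replicate 1 and 0.20 without CF replicate 2. It also turned without MF replicate 1, at 0.011.

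The effect of microcurrent was examined against untreated MF, the baseline of the study. For Cd44 the level was 171 ± 11.1 CPM (SD, n = 2) at 1 µA and 165 ± 10.0 CPM (SD, n = 2) at 2 µA. The log2 fold change was 0.10 ± 0.11 (SE) at 1 µA (adjusted p = 0.589, edgeR), with a 95% interval of the fold from 0.898 to 1.279. At 2 µA it was 0.054 ± 0.11 (SE) (adjusted p = 0.779, edgeR), with an interval from 0.870 to 1.24. Cd44 was called in neither comparison, in which 3.92% and 4.62% of all genes were called. These shares depended on having 2 libraries in each group compared. Without either MF library the fits called few genes, as did those for 1 µA without either 1 µA library. Without either 2 µA library the fits for 2 µA called fewer genes. Each of these fits left a group with 1 library. Levels of Cd44 below 0.870 of that in MF lay outside both intervals. For the mean of both microcurrent groups against MF, where 6.76% of all genes were called, the log2 fold change of Cd44 was 0.077 ± 0.094 (SE) (adjusted p = 0.602, edgeR).

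For Spp1 the level was 324 ± 43.6 CPM (SD, n = 2) at 1 µA. The log2 fold change against MF was 0.44 ± 0.38 (SE), or 1.35-fold with a 95% interval of 0.721 to 2.54 (adjusted p = 0.508, edgeR). Both 1 µA libraries lay above both MF libraries, but the gene was not called. The share of all genes that separate in this way was not counted, so no rise is read from this order. With only the 1 µA and MF libraries in the fit, the adjusted p was 0.0338 with a log2 fold change of 0.44, which is under the fold threshold.

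At 2 µA the level of Spp1 was 258 ± 153 CPM (SD, n = 2), with an SD more than 3 times that of any other group. The log2 fold change against MF was 0.11 ± 0.38 (SE), with a 95% interval of the fold from 0.576 to 2.02 (adjusted p = 0.876, edgeR). On the mean of log2 CPM, 7.87 at 2 µA and 7.90 in MF, the order of the groups was the opposite. The direction rested on which library was used. Without 2 µA replicate 1 the log2 fold change was -0.67 (adjusted p = 0.150), and without 2 µA replicate 2 it was 0.61 (adjusted p = 0.141). Over both microcurrent groups the log2 fold change of Spp1 was 0.27 ± 0.33 (SE) (adjusted p = 0.607, edgeR). It was -0.12 without 2 µA replicate 1 and 0.53 without 2 µA replicate 2 (adjusted p = 0.660 and 0.0836). Neither a fall nor a rise of Spp1 under 2 µA could be shown with these 2 libraries.

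Microcurrent-treated cells were next compared with CF, the healthy state. Cd44 was higher than in CF by 2.56-fold at 1 µA (95% interval 2.13 to 3.06, adjusted p = 0.00292, edgeR) and by 2.48-fold at 2 µA (95% interval 2.07 to 2.96, adjusted p = 0.00365, edgeR). It was called in both, as were 6.51% and 5.02% of all genes. These comparisons share the CF libraries with that of MF and CF. With only the 2 µA and CF libraries in the fit, Cd44 kept a log2 fold change of 1.31 but was not called (adjusted p = 0.0775), and that fit called 2 genes in all.

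Spp1 was not called against CF. Its log2 fold change was 0.42 ± 0.38 (SE) at 1 µA (adjusted p = 0.534, edgeR) and 0.092 ± 0.38 (SE) at 2 µA (adjusted p = 0.914, edgeR). The mean of log2 CPM gave the opposite order for 2 µA, at 7.87 against 7.91 in CF. Without 2 µA replicate 1 the latter was -0.69, and without 2 µA replicate 2 it was 0.60. The 2 µA libraries lay on either side of both CF libraries.

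Between the 2 current densities, the log2 fold change of 2 µA against 1 µA was -0.046 ± 0.11 (SE) for Cd44 and -0.33 ± 0.38 (SE) for Spp1 (adjusted p = 1.0 for both, edgeR). One gene of the 13849, or 0.00722%, was called in this comparison, and it was neither of them. For Spp1 the value was -1.11 without 2 µA replicate 1 (adjusted p = 0.485) and 0.18 without 2 µA replicate 2. The 95% interval of the fold was 0.812 to 1.16 for Cd44 and 0.425 to 1.49 for Spp1. The current densities could thus be compared far more closely for the receptor than for the ligand. In all, Cd44 was called in 3 of the 7 comparisons, each of them against CF. Spp1 was called in 0 of 7 by edgeR and in 0 of 7 by DESeq2, and 0 of its 7 unadjusted p-values from edgeR were below 0.05, the lowest being 0.291. That count of p-values rested on the 2 µA libraries. Without 2 µA replicate 1 or without replicate 2, 5 of 7 unadjusted p-values of Spp1 were below 0.05, and the lowest adjusted p was 0.150 and 0.0836.

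**Figure D2:**
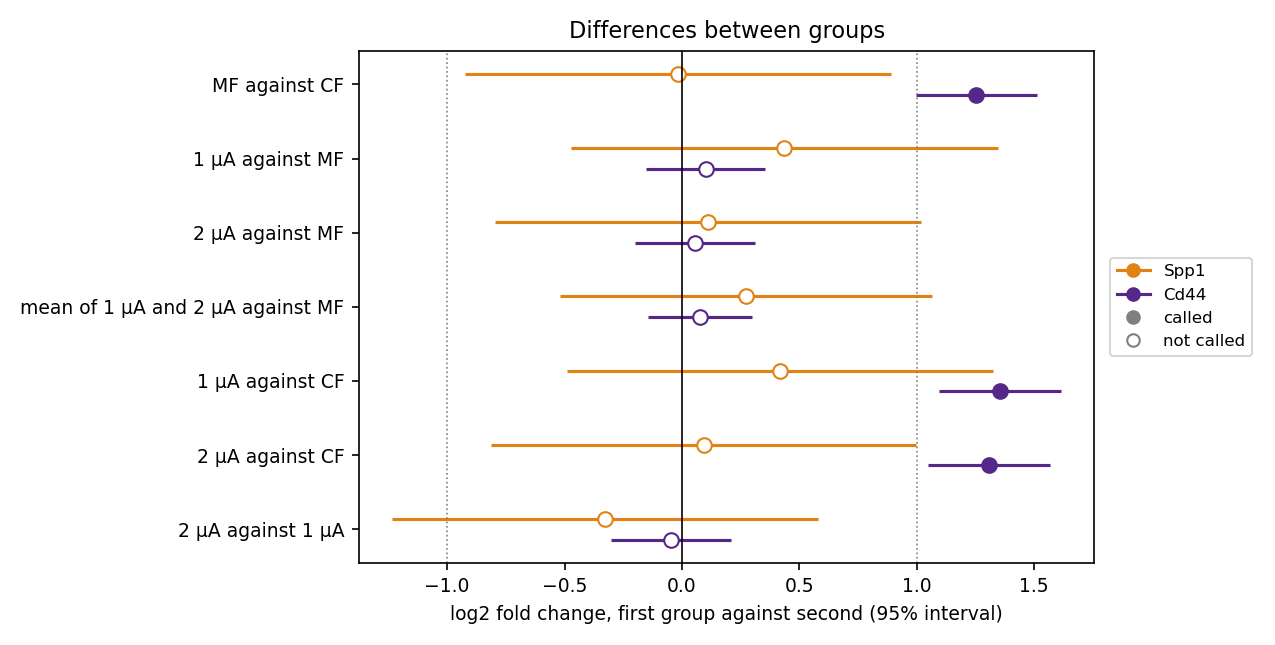
Log2 fold change of Spp1 (orange) and Cd44 (purple) in 7 comparisons, first group against second, with 95% intervals from edgeR's quasi-likelihood fit; filled points were called and dotted lines mark the fold threshold. The 3 filled points are Cd44 against CF, from 1.25 to 1.35, and every interval of Spp1 spans 0.

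In order of mean CPM, Cd44 was lowest in CF, then MF, then 2 µA, then 1 µA, and the step between CF and MF was the only one between neighbours that passed the test. The order for Spp1 was MF, CF, 2 µA and 1 µA, and no step passed the test. On the authors' variance stabilised log2 scale, Cd44 stood at 11.0 ± 0.041 (SD, n = 2) in CF and at 12.3 ± 0.082 in MF, 12.4 ± 0.088 at 1 µA and 12.3 ± 0.065 at 2 µA. Spp1 stood at 12.8 ± 0.27 (SD, n = 2) in CF, 12.8 ± 0.041 in MF, 13.3 ± 0.20 at 1 µA and 12.8 ± 0.90 at 2 µA. The authors' values, which rest on the same counts, likewise set CF apart for Cd44 and the 2 µA replicates apart for Spp1. The order of the Spp1 means differed from that of mean CPM, with 2 µA lowest at 12.81 against 12.84 in CF and MF.

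The difference between the 2 µA replicates of Spp1 was set against that of 5446 genes with a mean of at least 1000 counts, a set that includes genes less abundant than Spp1. On the log2 CPM scale the 2 µA replicates were 1.29 apart for Spp1, with replicate 2 lower, and the median absolute difference over these genes was 0.159. Of the 5446 genes, 64 (1.18%) were at least as far apart, Spp1 included. Counting error was far smaller than this gap, since the exact 95% Poisson intervals were 11208 to 11628 counts for replicate 1 and 4502 to 4769 for replicate 2. These intervals cover counting error only.

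In the other groups Spp1 was less unusual. Its replicates differed by 0.40 in CF, where 21.6% of the genes were at least as far apart, by 0.056 in MF, where 63.8% were, and by 0.28 at 1 µA, where 13.5% were. Cd44 replicates differed by 0.061, 0.15, 0.13 and 0.12 in CF, MF, 1 µA and 2 µA, and at least 23.8% of the genes were as far apart in each group. The biological coefficient of variation that edgeR estimated within groups was 27.3% for Spp1 and 11.0% for Cd44, and 18.4% for all genes in common. Of the 5446 genes, 4.19% had a higher estimate than Spp1 and 70.2% a higher one than Cd44.

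**Figure D3:**
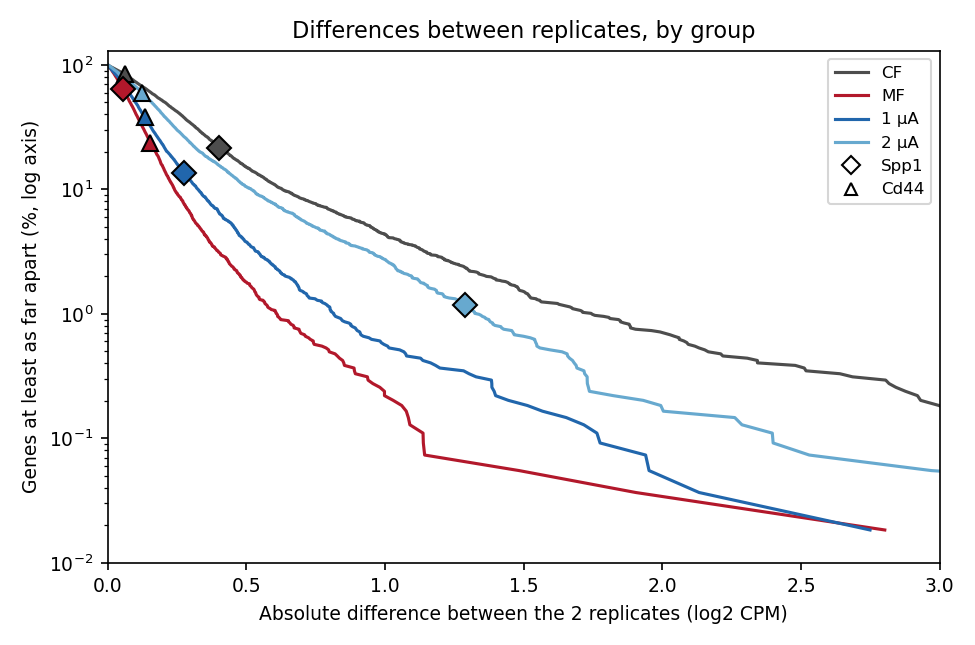
Share of 5446 genes, on a log axis, whose 2 replicates were at least a given distance apart in log2 CPM, with 1 line per group, drawn up to a distance of 3, and with Spp1 (diamonds) and Cd44 (triangles) marked on the line of each group. Spp1 at 2 µA is 1.29 apart, a distance that 1.18% of the genes reach, while all Cd44 marks lie under 0.16.

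The 2 µA difference of Spp1 was also present in the second count table of the study, which has whole-number counts and fewer genes. There Spp1 had 9702 counts in 2 µA replicate 1 and 3929 in replicate 2. Over the 8 libraries these counts were 0.845 to 0.861 of the estimated counts for Spp1 and 0.757 to 0.796 for Cd44. The 2 tables thus placed both genes alike in each library, and the low value of Spp1 in 2 µA replicate 2 did not come from a single table.

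The ratio of Spp1 to Cd44 counts within a library shows how far ligand and receptor moved apart, whatever the library's scaling. It was 3.06 and 4.22 in CF and 1.56 and 1.46 in MF. At 1 µA it was 1.99 and 1.80, and at 2 µA it was 2.13 and 0.948. The CF ratios lay above the 6 others, as CF had the lowest Cd44 values. Both 1 µA ratios lay between those of MF and CF, and the 2 µA ratios lay on either side of MF. Over the 8 libraries, the variance stabilised values of Spp1 and Cd44 had a Pearson correlation of 0.20, given as a description only, since the libraries come in 4 groups.

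**Figure D4:**
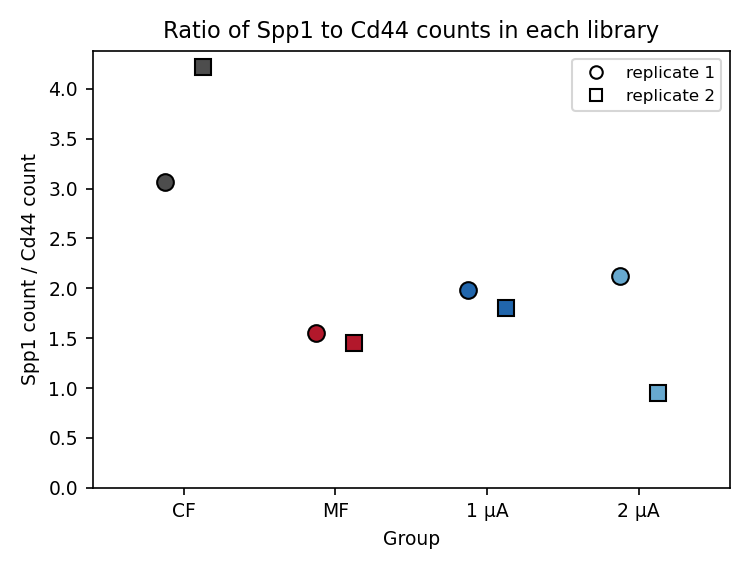
Ratio of Spp1 to Cd44 counts in each library, by group, with replicate 1 as circles and replicate 2 as squares. The ratio is 3.06 and 4.22 in CF and from 0.948 to 2.13 in the 6 myofibroblast libraries, and the 2 µA replicates differ most among those.

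Genes of like pattern were sought by Pearson correlation of the variance stabilised values over the 8 libraries, as a description with no test, since many genes differ between CF and the other groups. For Cd44, 329 of 13848 genes had a correlation above 0.9 and 352 had one below -0.9. The closest was ENSRNOG00000033740 (0.993), at 7.20 and 7.21 in CF and from 8.33 to 8.58 in the 6 myofibroblast libraries, and the next was ENSRNOG00000047911 (0.991). The most opposed were ENSRNOG00000060435 and ENSRNOG00000045816 (-0.994 each). The latter stood at 7.73 and 7.79 in CF and from 5.69 to 6.16 in the other libraries. All 4 set CF apart from the remaining groups, which follows from choosing them by their correlation with Cd44. ENSRNOG00000060435 stood at 5.92 and 6.03 in CF and at 5.15, near the floor of this scale, in the other libraries. ENSRNOG00000047911 was at 5.15 in both CF libraries.

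For Spp1, 14 genes had a correlation above 0.9 and 28 had one below -0.9. The closest were ENSRNOG00000022921 (0.963) and ENSRNOG00000003597 (0.956), and the most opposed were ENSRNOG00000002746 (-0.967) and ENSRNOG00000020246 (-0.964). ENSRNOG00000002746 stood at 15.66 in 2 µA replicate 1 and 16.23 in replicate 2, its highest value, with 15.58 to 15.98 in the 6 other libraries. ENSRNOG00000003597 was lowest in 2 µA replicate 2, at 9.37, and between 9.52 and 9.88 elsewhere. Both had their extreme value in the library in which Spp1 was lowest, which the choice by correlation with Spp1 favours. Neither was called between MF and CF or between the mean of both microcurrent groups and MF (adjusted p from 0.751 to 0.961, edgeR). ENSRNOG00000022921 stood low on this scale, from 5.56 to 6.24.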

How the data were processed

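From salmon (rn6 transcriptome) and tximeta, the authors deposited an estimated count per gene and library, with normalized values (a signal, divided by DESeq2 factors per gene and library) and variance stabilised values on a log2 scale. A second deposited table holds whole-number counts of 13341 genes, and its pipeline is not given in the sources used here. The labels name STAR and DESeq2 1.28.1 in the submitters' processing notes. Groups and replicate numbers came from sample titles.

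Estimated counts, rounded, were analysed for all genes with edgeR 4.0.16 in R 4.3.3 (filterByExpr, TMM, robust quasi-likelihood, 1 coefficient per group, 8 libraries, 4 residual degrees of freedom). The SE is the size of the log2 fold change over √F, and 95% intervals use the fit's total degrees of freedom. Log2 CPM used a prior count of 2. The code of the fit was tested on simulated counts in which all genes shared a single spread. That test does not bear on the intervals of Spp1 or Cd44. Alternatives were DESeq2 1.42.0, RLE and upper quartile scaling, other filters, the matrix, length offsets from the authors' factors, only the groups compared, a replicate block, other thresholds and leaving out each library.

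The 2 genes, and lists of their partners and of cell markers, were chosen with earlier results of these data known. The lists need gene symbols and were not run. Named genes are the 2 members and, for each, the 2 IDs most and least correlated with it. Sequences of the 2 proteins were not used here.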

Additional observations from a re-analysis of the deposited data

How the results depend on the processing

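Of the 57 alternatives run for the 3 calls of Cd44 against CF, 56 kept the call, with log2 fold changes from 1.18 to 1.42. The exception was 2 µA against CF with only those libraries in the fit (1.31, adjusted p = 0.0775). Alternatives with other thresholds reused the main fit, so its results had already fixed their outcome. All 3 calls share the CF libraries, so the alternatives are not independent of each other. None of the alternatives called Spp1 in any comparison, or Cd44 among MF, 1 µA and 2 µA. Among the refits, directions turned only when a library was left out, although with all libraries the mean of log2 CPM also put Spp1 lower at 2 µA than in MF and CF. For Spp1 the fits without a library gave -0.19 to 0.20 for MF against CF, -0.67 to 0.61 for 2 µA against MF, -0.12 to 0.53 for the mean of both currents against MF, -0.69 to 0.60 for 2 µA against CF and -1.11 to 0.18 for 2 µA against 1 µA. For Cd44 they gave -0.021 to 0.13 for 2 µA against MF and -0.11 to 0.022 for 2 µA against 1 µA. A group left with 1 library was assumed to vary like the others. The cause was not tested. With 2 libraries a group, the upper ends of the 95% intervals of Spp1 reached folds of 1.49 to 2.54.

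Replicate differences correlated from -0.17 to 0.24 over genes between groups, with the highest value between 1 µA and 2 µA. With 1 difference a group, this cannot decide whether equal replicate numbers share an animal or culture. With the replicate block, Cd44 had a log2 fold change of 1.25 from CF to MF (adjusted p = 0.00494) and Spp1 one of -0.033 (adjusted p = 0.961), and no call of either gene changed.

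Over all genes, DESeq2, run on 17184 genes without the filter, called 940 at 1 µA, 1036 at 2 µA against MF and 1072 at 2 µA against CF, in place of 543, 640 and 695, and edgeR without the filter called 635, 729 and 789. With only the groups compared these counts were 1164, 839 and 2, and 485 in place of 901 at 1 µA against CF. Across the 8 fits that each lacked 1 library, MF and CF differed in 336 to 1997 genes. Against MF, the 1 µA group had 4 to 886 calls, the 2 µA group 9 to 985 and their mean 17 to 1101. Against CF, calls numbered from 138 to 1191 for 1 µA and from 292 to 1020 for 2 µA. The counts that involve MF were lowest when either MF library was left out, which left MF with 1 library.

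The alternatives planned for the lists of osteopontin and CD44 partners were not run.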

Other observations

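The authors' factors hold, beside library size, the mean length of the transcripts assigned to a gene, and so bear on which transcripts of Cd44 were used. Relative to the gene's own mean over the 8 libraries, this length was 1.019 in both CF libraries, 0.985 and 1.00 in MF, 0.999 and 1.00 at 1 µA, and 0.997 and 0.979 at 2 µA. Both CF values lay above the 6 others, but the whole range was 1.04-fold, and 26.1% of 12558 genes had a wider one. For Spp1 the range was 1.024-fold, and 41.0% of the genes had a wider one. With these lengths in the fit, the log2 fold change of Cd44 between MF and CF was 1.31 in place of 1.25.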
